A study of Mus musculus with 18 samples.

Results

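The genes that make and remove superoxide were examined in the retinal pigment epithelium (RPE) of *rd1* mice that overexpressed Nrf2. The group was taken as a named list of 9 genes out of the 47729 in the count table. It held the superoxide dismutases *Sod1*, *Sod2* and *Sod3*, the copper chaperone *Ccs*, catalase (*Cat*) and the NADPH oxidase genes *Cybb*, *Cyba*, *Nox4* and *Ncf1*. All 9 genes passed the filter on low counts and were among the 18958 genes tested. *Rd1* mice (FVB/N) carry a loss-of-function mutation in *Pde6b* and lose their rods early in life, and all 9 animals were studied at P40. In each mouse, 1 eye had received AAV-Best1-Nrf2, an AAV8 vector with the human cDNA, together with AAV-Best1-GFP (control vector, 7m8 capsid), whereas only AAV-Best1-GFP was given to the other eye. By the paper's methods, the eye given both vectors also received a higher total dose. Effects of dose and of the AAV8 capsid therefore cannot be told apart from those of Nrf2. The 9 libraries of each kind are called Best1-Nrf2 and control. The human Best1 promoter is active in the RPE, and the RNA was that released by the eyecup into a preserving solution after the retina had been taken off, with no sorting of cells described.

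Superoxide is formed when oxygen takes up a single electron, as happens by leakage from the mitochondrial respiratory chain and by design in NADPH oxidases. Superoxide dismutases turn it into hydrogen peroxide, which catalase, glutathione peroxidases and peroxiredoxins then remove. The RPE lies against the oxygen-rich choroid and takes up shed photoreceptor membranes, so this pathway has long been studied there. Nrf2 is a transcription factor that switches on many antioxidant genes through a short DNA motif, the antioxidant response element.

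*Nfe2l2*, which encodes Nrf2, served as the check of the labels. Its level in CPM, the count relative to the TMM-scaled library total, was 89.7 ± 17.8 in control eyes, against 453 ± 147 in Best1-Nrf2 eyes (n = 9 each, SD). The groups did not overlap, although reads of the human cDNA and the mouse transcript cannot be told apart. Libraries held 18956748 to 49598700 counts. Markers of the RPE were abundant in both groups (summed level, 12906 to 68682 CPM in control eyes, 15535 to 78425 CPM with Best1-Nrf2), with 5 of 14 lower and none higher in Best1-Nrf2 eyes. Other cell types moved with the treatment. Of the cone markers tested, 9 of 10 were lower (summed level, 298 to 2258 CPM in control eyes, 54.1 to 534 CPM with Best1-Nrf2), as were 3 of 8 rod markers (77.8 to 647 CPM and 6.06 to 82.8 CPM). Of the macrophage and microglia markers, 12 of 19 were higher and none was lower. Of 9 fibroblast and sclera markers, 1 was higher (*Col3a1*, adjusted p = 0.0462), and their mean level was higher after Best1-Nrf2 in 9 of 9 mice (median log2 fold change, 0.57). In control eyes, the summed cone level was 1733 to 2258 CPM in mice 1, 2, 3 and 9 and 298 to 800 CPM in the other 5. The part of these shifts in the changes described here was not tested. In bulk RNA, fewer cells of a type and less RNA per cell cannot be told apart.

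Of the 9 genes, *Sod2* and *Cat* rose with Best1-Nrf2 and none fell (edgeR quasi-likelihood test with mouse as a block, adjusted p under 0.05). That was 22.2% of the group, against 4.25% of all genes tested that passed in either direction and 3.12% that passed as higher. *Sod2* rose 1.90-fold (95% confidence interval [CI], 1.46 to 2.47) and *Cat* 2.21-fold (95% CI, 1.50 to 3.27). In 9 of 9 mice, both were higher on the Best1-Nrf2 side, which was the case for 3.12% of all genes tested, while 1.22% were lower in 9 of 9 mice. The ranges of the groups overlapped for each of the 9 genes, whereas 1.05% of all genes tested had every Best1-Nrf2 eye above every control eye and 0.116% had every one below. The median log2 fold change was 0.48 over the 9 genes and -0.03 over all genes tested.

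**Figure D1:**
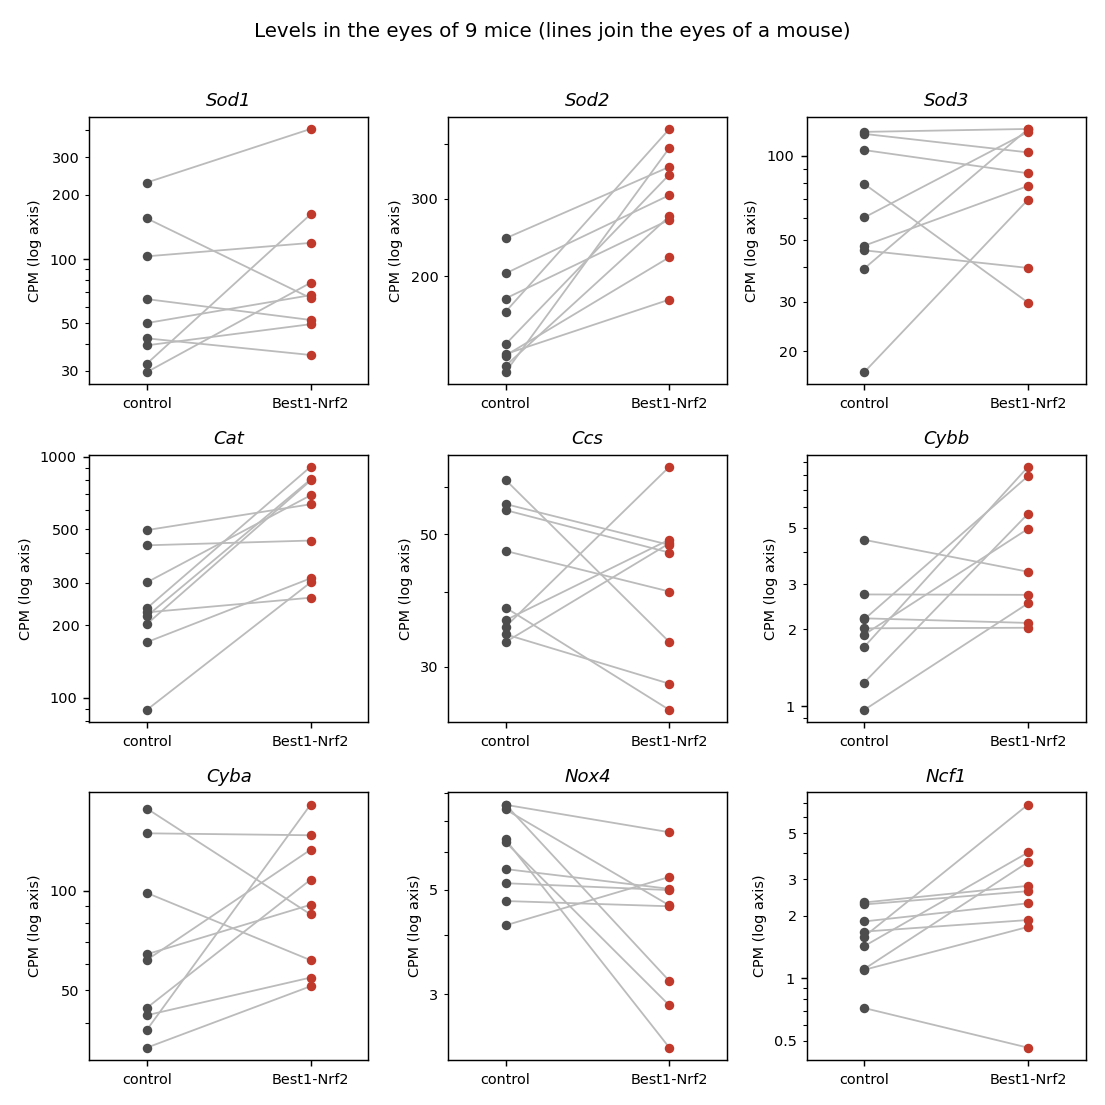
Level of each of the 9 genes (CPM, log axis) in the control and Best1-Nrf2 eye of each mouse, with a line joining the eyes of a mouse. For *Sod2* and *Cat* all 9 lines rise, and for each gene the ranges of the groups overlap.

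*Sod2*, *Cat* and *Sod1* encode scavengers in different compartments, namely the mitochondrial matrix, the peroxisome and, for *Sod1*, mainly the cytosol. The bases upstream of their starts are shown because the first 2 rose and the third did not pass the test. They are given 5′ to 3′ on the strand of the gene (RefSeq starts, GRCm38.p6), at chr17:13007589-13007838 (plus strand) for *Sod2*, chr2:103485154-103485403 (minus strand) for *Cat* and chr16:90220512-90220761 (plus strand) for *Sod1*. Capitals mark a match to the antioxidant response element core TGACNNNGC on either strand.
Sod2: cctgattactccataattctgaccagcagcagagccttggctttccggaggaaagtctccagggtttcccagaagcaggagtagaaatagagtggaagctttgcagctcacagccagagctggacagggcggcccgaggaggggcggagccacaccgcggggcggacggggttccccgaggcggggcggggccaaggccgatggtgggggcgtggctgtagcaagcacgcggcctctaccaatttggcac
Cat: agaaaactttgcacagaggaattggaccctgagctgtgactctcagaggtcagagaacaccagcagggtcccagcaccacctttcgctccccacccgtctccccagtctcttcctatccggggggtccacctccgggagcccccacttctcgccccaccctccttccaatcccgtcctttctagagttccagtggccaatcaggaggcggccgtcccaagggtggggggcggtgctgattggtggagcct
Sod1: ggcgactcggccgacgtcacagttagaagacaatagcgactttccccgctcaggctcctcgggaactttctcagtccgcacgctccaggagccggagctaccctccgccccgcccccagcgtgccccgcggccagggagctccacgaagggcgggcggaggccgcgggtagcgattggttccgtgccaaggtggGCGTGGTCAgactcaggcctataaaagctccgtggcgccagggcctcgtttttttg
The only match was that of *Sod1*, on the minus strand, 56 bases before the start, where the letters read TGACCACGC. Windows of 300 bases (250 before and 50 after the start) were at hand for 7 of the 9 genes, all but *Sod3* and *Ccs*, and 1 of 7 (14.3%) held the core. By comparison, 4071 of 32851 windows of all genes (12.4%) held it. Of the 14 canonical Nrf2 targets, 10 had a window, and 6 of these 10 genes (60%) held the core in at least 1 window. The share over all genes thus counts windows, and that of the targets counts genes. A match of letters is a description and not a binding site, and a window without one says nothing about sites elsewhere.

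*Sod2* (ENSMUSG00000006818, GRCm38 chromosome 17, 13006846–13040063, plus strand) encodes the manganese superoxide dismutase of mitochondria. Its level in control eyes was between 121 and 244 CPM (median, 140 CPM), and in Best1-Nrf2 eyes between 177 and 433 CPM (median, 306 CPM). The overlap came from the control eyes of mice 2, 3 and 5 (178, 203 and 244 CPM) and the Best1-Nrf2 eyes of mice 1 and 9 (177 and 221 CPM). The mean was 160 ± 41.8 CPM in control and 307 ± 81.6 CPM in treated eyes (n = 9 each, SD), and the log2 fold change was 0.93 (SE 0.17, adjusted p = 0.00818). Within mice, the log2 difference ran from 0.41 in mouse 1 to 1.69 in mouse 4. The call held with any mouse left out (log2 fold change, 0.83 to 1.05, adjusted p from 0.00894 to 0.0346). It was lost when the mean level of rod and cone markers was added to the model (1.40, SE 0.38, adjusted p = 0.114), and likewise for macrophage and microglia markers (0.84, SE 0.43, adjusted p = 1.00). *Sod2* shares 20.1% of its 31-base words with *Rps6ka2*, mostly through minor transcripts, since its principal transcript shares 3.88% with other counted genes.

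*Cat* (ENSMUSG00000027187, chromosome 2, 103453849–103485160, minus strand) encodes the peroxisomal enzyme that splits hydrogen peroxide into water and oxygen. Control eyes had 89.0 to 496 CPM (median, 226 CPM), and Best1-Nrf2 eyes had 260 to 909 CPM (median, 635 CPM). The spread between mice was wide. The control eyes of mice 1 and 9 were highest, at 429 and 496 CPM, and these mice showed small log2 differences between the eyes, 0.07 and 0.36. So did mouse 6 (0.20), whose control eye was at the median. In mice 4, 5, 7 and 8 the log2 difference was 1.95, 1.88, 1.98 and 1.76. The group means were 263 ± 128 CPM and 574 ± 247 CPM (n = 9 each, SD), and the log2 fold change was 1.15 (SE 0.26, adjusted p = 0.0252). The *Cat* call was less firm than that of *Sod2*, as it was lost without mouse 2, 4, 5, 7 or 8 (log2 fold change, 1.04 to 1.14, adjusted p from 0.0627 to 0.0813) and without the replicate block for mouse (1.13, adjusted p = 0.0556). It was also lost with rod and cone markers (1.31, SE 0.61, adjusted p = 0.273), macrophage and microglia markers (0.75, SE 0.63, adjusted p = 1.00) or RPE markers (1.46, SE 0.34, adjusted p = 0.0516) in the model.

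*Sod1* (ENSMUSG00000022982, chromosome 16, 90220754–90226329, plus strand), the copper and zinc superoxide dismutase of the cytosol, did not pass. Control eyes had 29.6 to 228 CPM (median, 50.2 CPM), and Best1-Nrf2 eyes had 35.6 to 406 CPM (median, 67.8 CPM). Both eyes of mouse 3 were the highest of their group. The log2 fold change was 0.40 (SE 0.31, adjusted p = 0.708), with a 95% CI from -0.28 to 1.08, and the gene was higher in 6 of 9 Best1-Nrf2 eyes. Mice pulled in opposite directions, with a log2 difference of 2.31 in mouse 6 and -1.23 in mouse 5. From control to Best1-Nrf2 eye, the summed level of red blood cell markers went from 295 to 3646 CPM in mouse 6 and from 3175 to 341 CPM in mouse 5. In mouse 1 it rose from 440 to 562 CPM while *Sod1* had a log2 difference of -0.26. The part of these markers was not tested. The estimate was 0.17 without mouse 6 and 0.60 without mouse 5, and 1.63 with rod and cone markers in the model (SE 0.64, adjusted p = 0.207). The principal *Sod1* transcript shares 34.9% of its 31-base words with other counted genes, but the related pseudogene *Gm8566* held only 0 to 8 counts in a library, against at least 1356 for *Sod1*.

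*Sod3* (ENSMUSG00000072941, chromosome 5, 52363791–52371418, plus strand) encodes the secreted dismutase of the extracellular matrix. Its level was 16.8 to 122 CPM in control eyes (median, 60.2 CPM) and 29.8 to 125 CPM in Best1-Nrf2 eyes (median, 86.7 CPM), so that the groups covered nearly the same range. The log2 fold change was 0.37 (SE 0.33, 95% CI -0.35 to 1.08, adjusted p = 0.756), and 5 of 9 mice had the higher level in the Best1-Nrf2 eye. The log2 difference was -1.41 in mouse 6 and 2.05 in mouse 8. The sign of the estimate turned when rod and cone markers (-0.50) or macrophage and microglia markers (-0.44) were in the model.

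*Ccs* (ENSMUSG00000034108, chromosome 19, 4825366–4839332, minus strand) encodes the chaperone that loads copper onto *Sod1*. Its levels were the steadiest of the scavenger genes together with those of *Sod2*, at 33.0 to 61.7 CPM in control eyes (median, 37.7 CPM) and 25.4 to 64.9 CPM in Best1-Nrf2 eyes (median, 46.6 CPM). The log2 fold change was -0.06 (SE 0.19, adjusted p = 0.955), and the 95% CI of -0.48 to 0.36 was the second narrowest of the 9 genes, after that of *Sod2*. It was higher in 3 of 9 Best1-Nrf2 eyes, and the sign of so small an estimate turned with the RPE markers (0.39) or rod and cone markers (0.78) in the model. Genes that supply the copper and manganese of the dismutases were examined beside it. None of the 11 tested of 12 passed with edgeR, DESeq2 or voom, 1 (*Mt2*) had an unadjusted p under 0.05, as had 12.8% of all genes tested, and their median log2 fold change was -0.10. The most abundant were the metallothioneins *Mt1* (2919 ± 3840 CPM in control eyes, 2690 ± 4625 CPM with Best1-Nrf2, log2 fold change -0.38, adjusted p = 0.784) and *Mt2* (-0.80, adjusted p = 0.323), which bind zinc and copper.

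**Figure D2:**
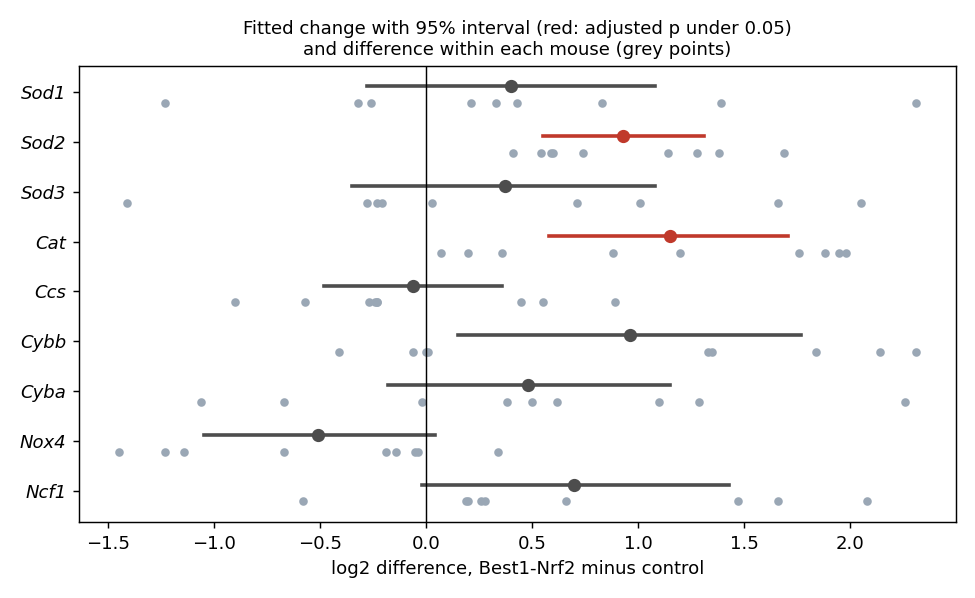
Fitted log2 fold change of each of the 9 genes with its 95% CI (red where the adjusted p was under 0.05) and the log2 difference within each of the 9 mice (grey points). *Sod2* and *Cat* are the red genes, and the intervals of the other 7 genes either include 0 or, for *Cybb*, belong to an adjusted p of 0.264.

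Whether the scavengers moved by unequal amounts was tested on the differences within mice, as a call for *Sod2* and none for *Sod1* does not show it. *Sod2* rose by 0.52 ± 0.85 more than *Sod1* on the log2 scale (SD, n = 9 mice), a difference within the spread (exact 2-sided sign-flip permutation test, p = 0.109, adjusted p = 0.219 over 4 comparisons, higher in 7 of 9 mice). For *Cat* against *Sod1* the difference was 0.73 ± 1.45 (exact p = 0.164, adjusted p = 0.219, higher in 8 of 9 mice). *Ccs* against *Sod1* gave -0.47 ± 0.89 (exact p = 0.160, adjusted p = 0.219, higher in 2 of 9 mice). The smallest p that 9 pairs allow is 0.00391. The first 2 comparisons depended on single mice. Without mouse 6, whose *Sod1* difference was 2.31, the *Sod2* and *Cat* differences from *Sod1* were 0.73 and 1.09, both at an adjusted p of 0.0312. Without mouse 5, whose *Sod1* difference was -1.23, they were 0.36 and 0.43, both at an adjusted p of 0.438. Of the 9 fits that each left out 1 mouse, only that without mouse 6 changed these calls. The Best1-Nrf2 eye of mouse 6 also had the highest summed cone level of its group (534 CPM, against 54.1 to 132 CPM in the other 8), above its own control eye (298 CPM). As a share of the message of the 3 dismutases per kilobase of merged exon, *Sod2* made up 29.5 ± 5.27% in control eyes and 39.6 ± 10.8% after Best1-Nrf2 (n = 9 each, SD). By the longest transcript the shares were 41.5 ± 6.18% and 52.2 ± 11.8%, and by the principal transcript, a length chosen after the data were seen, 18.1 ± 4.82% and 25.4 ± 8.69%. By each length the share was larger after Best1-Nrf2 in 7 of 9 mice.

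Hydrogen peroxide, the product of the dismutases and the substrate of catalase, is also made by oxidases and removed by peroxidases. Of the oxidases that form it, 4 of 20 tested rose and none fell (median log2 fold change, 0.07), against 3.12% of all genes tested that rose and 1.13% that fell. The count was 2 with the rod and cone or the macrophage and microglia markers in the model. Largest was the change of *Acox2*, a peroxisomal acyl-CoA oxidase, from 3.03 ± 1.06 to 147 ± 74.4 CPM (log2 fold change 5.47, SE 0.40, adjusted p = 1.26e-05). Aldehyde oxidase *Aox1*, which can also form superoxide, went from 1.29 ± 0.373 to 35.6 ± 18.6 CPM (4.63, SE 0.38, adjusted p = 2.64e-05). Monoamine oxidase A, *Maoa*, of the outer mitochondrial membrane went from 13.7 ± 3.14 to 163 ± 69.1 CPM (3.48, SE 0.22, adjusted p = 7.15e-06). For these 3 genes every Best1-Nrf2 eye was above every control eye (1.05% of all genes tested), in contrast to *Sod2* and *Cat*. *Maob* rose less (0.78, SE 0.18, adjusted p = 0.0270). Among glutathione peroxidases and peroxiredoxins, 2 of 12 tested rose and none fell (median, 0.42, against 3.12% and 1.13% of all genes tested), namely *Prdx6* (773 ± 144 to 4738 ± 2089 CPM, log2 fold change 2.51, adjusted p = 5.01e-05) and *Prdx1* (783 ± 208 to 3400 ± 1691 CPM, 1.99, adjusted p = 6.22e-04). The 10 genes that import catalase and other enzymes into peroxisomes held no call with edgeR, DESeq2 or voom, and 0 had an unadjusted p under 0.05 (median, -0.01). Of these, *Pex2* had a log2 fold change of 0.00 (adjusted p = 0.997) and *Pex14* of -0.25 (adjusted p = 0.744). The peroxidase count was 5 with DESeq2 or RPE markers in the model, 4 with voom, and 0 with the rod and cone or the macrophage and microglia markers. All 14 canonical Nrf2 targets rose, by a median of 2.79, and 2 of them passed with either of the last covariates.

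**Figure D3:**
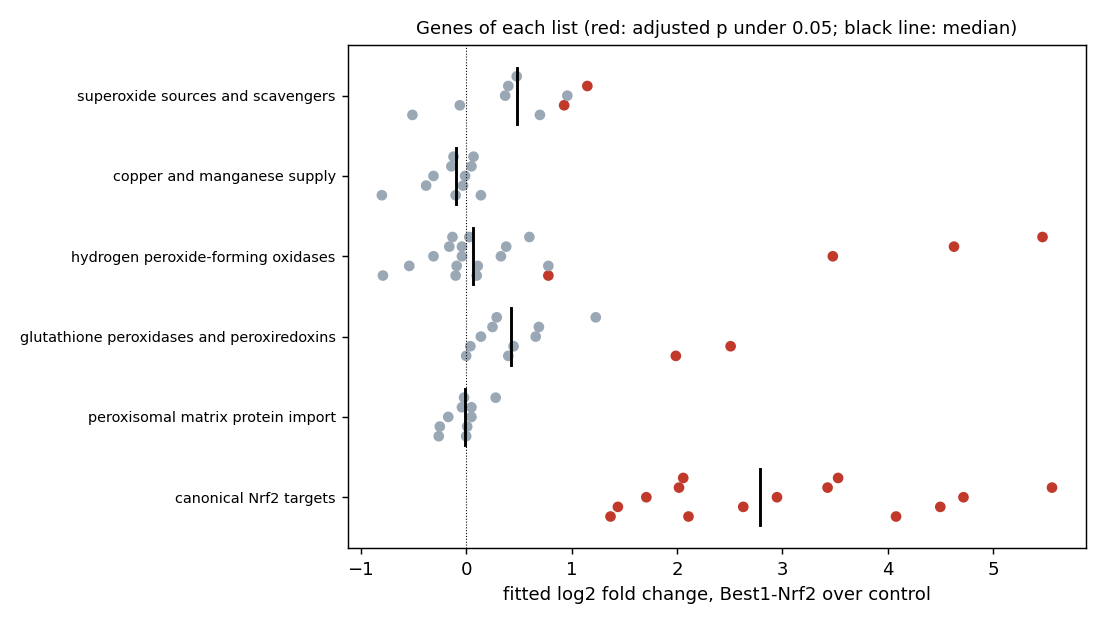
Fitted log2 fold change of the tested genes of the 9-gene group and of 5 related lists (red where the adjusted p was under 0.05, black line for the median). *Sod2* and *Cat*, at 0.93 and 1.15, lie below the median of the canonical Nrf2 targets, 2.79.

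NADPH oxidases move electrons across a membrane to oxygen and are the dedicated superoxide source among these genes. *Cybb* encodes the catalytic subunit of the phagocyte enzyme, *Cyba* the membrane partner it shares with *Nox4*, and *Ncf1* a cytosolic organizer. None of the 4 passed over all genes tested.

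*Cybb* (ENSMUSG00000015340, chromosome X, 9435252–9487771, minus strand) was low, at 0.969 to 4.48 CPM in control eyes (median, 2.02 CPM, 17 to 161 counts) and 2.03 to 8.65 CPM in Best1-Nrf2 eyes (median, 3.36 CPM, 55 to 334 counts). The log2 fold change was 0.96 (SE 0.37, 95% CI 0.15 to 1.77, unadjusted p = 0.0241, adjusted p = 0.264). The mice differed widely. Mice 4, 5, 7, 8 and 9 had log2 differences of 1.33 to 2.31, whereas mice 1, 2, 3 and 6 lay between -0.41 and 0.01.

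*Ncf1* (ENSMUSG00000015950, chromosome 5, 134220053–134229625, minus strand) had 0.720 to 2.32 CPM in control eyes (median, 1.59 CPM, 31 to 112 counts) and 0.464 to 6.87 CPM in Best1-Nrf2 eyes (median, 2.63 CPM, 18 to 245 counts). It was higher in 8 of 9 Best1-Nrf2 eyes, mouse 4 being the exception, and its log2 fold change was 0.70 (SE 0.33, 95% CI -0.02 to 1.43, adjusted p = 0.409). The gene overlaps *Gtf2ird2* on the opposite strand, and the library kit does not mark strand, so reads of the overlap cannot be told apart. *Cyba* (ENSMUSG00000006519, chromosome 8, 122424776–122432930, minus strand) was far more abundant, at 33.6 to 177 CPM in control eyes (median, 61.8 CPM) and 51.5 to 182 CPM in Best1-Nrf2 eyes (median, 90.7 CPM). Its log2 fold change was 0.48 (SE 0.31, 95% CI -0.18 to 1.15, adjusted p = 0.603), and of the alternatives run it passed only when RPE markers were added to the model (1.25, adjusted p = 0.0452). The estimate was 1.47 (SE 0.64) with rod and cone markers and 0.04 (SE 0.74) with macrophage and microglia markers. The change of *Cybb* did not differ from that of its partner *Cyba* beyond the spread (0.46 ± 1.39 on the log2 scale, SD, n = 9 mice, exact sign-flip p = 0.379, adjusted p = 0.379, higher in 5 of 9 mice).

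*Nox4* (ENSMUSG00000030562, chromosome 7, 87246096–87398710, plus strand), an oxidase that needs no cytosolic organizer and releases mainly hydrogen peroxide, had the lowest estimate of the group. Control eyes had 4.20 to 7.58 CPM (median, 6.31 CPM) and Best1-Nrf2 eyes had 2.31 to 6.62 CPM (median, 4.63 CPM). The Best1-Nrf2 eyes of mice 2, 5 and 8, at 2.84, 2.31 and 3.20 CPM, were below every control eye. The log2 fold change was -0.51 (SE 0.25, 95% CI -1.05 to 0.04, adjusted p = 0.439), and the level was lower in 8 of 9 Best1-Nrf2 eyes, all but that of mouse 1. With macrophage and microglia markers in the model the estimate was -0.09 (SE 0.59).

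Other subunits and regulators of these enzymes include the small GTPases *Rac1* and *Rac2*, which activate the phagocyte enzyme, and *Duoxa1*, a maturation factor of the dual oxidases. *Rac1* was abundant, at 389 ± 89.7 CPM in control eyes and 406 ± 150 CPM after Best1-Nrf2 (n = 9 each, SD), and its log2 fold change was -0.00 (SE 0.22, adjusted p = 0.998). *Rac2*, the form of blood cells, was at 2.20 ± 0.567 and 3.45 ± 1.22 CPM. It was higher after Best1-Nrf2 in 9 of 9 mice but did not pass over all genes tested (0.61, SE 0.24, adjusted p = 0.279). *Duoxa1* had a log2 fold change of -0.69 (adjusted p = 0.734). *Noxa1* had no count in any library, and *Nox1*, *Nox3* and *Duoxa2* did not pass the filter on low counts.

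*Cybb* and *Ncf1* are typical of phagocytes, so markers of macrophages and microglia are given beside them. In mouse 4 the mean log2 difference of the markers was 0.31, with 2.14 for *Cybb* and -0.58 for *Ncf1*, and in mouse 2 it was 1.68, with -0.41 for *Cybb* and 1.66 for *Ncf1*. In mice 7, 8 and 9 it was 2.13, 2.59 and 1.46, with 1.84, 1.33 and 1.35 for *Cybb* and 2.08, 0.28 and 0.26 for *Ncf1*. In mouse 5 it was 0.96, with 2.31 for *Cybb* and 1.47 for *Ncf1*. In mice 1, 3 and 6 it was 0.92, 1.28 and 0.97, with -0.00, -0.06 and 0.01 for *Cybb* and 0.20, 0.66 and 0.19 for *Ncf1*. The summed level of the 19 markers was 174 to 522 CPM in control eyes (median, 246 CPM) and 180 to 796 CPM in Best1-Nrf2 eyes (median, 543 CPM), and their mean log2 level was higher after Best1-Nrf2 in 9 of 9 mice. Among them were the complement gene *C1qc* (11.9 to 47.4 CPM in the mean, adjusted p = 7.17e-04) and the lysosomal protease gene *Ctss* (26 to 73.7 CPM, adjusted p = 0.00364), whereas *Csf1r*, the most abundant in control eyes, had a log2 fold change of -0.97 (adjusted p = 0.113). None of the 19 was at 0 throughout, and *Mrc1* had the lowest mean level in both groups (0.729 and 1.56 CPM). Of the 11 neutrophil markers, 4 passed the filter, *Elane* had no count in any library, and *Csf3r* rose (1.83, adjusted p = 0.0374). The log2 fold change of the other 3 was 0.53 for *Ly6g*, -0.15 for *Ltf* and -0.67 for *S100a9* (adjusted p from 0.759 to 0.980). With the macrophage and microglia markers in the model, the estimates were 1.00 for *Cybb* (SE 0.92) and -0.14 for *Ncf1* (SE 0.75). With that covariate, 22 genes of all tested were higher and 2 were lower.

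**Figure D4:**
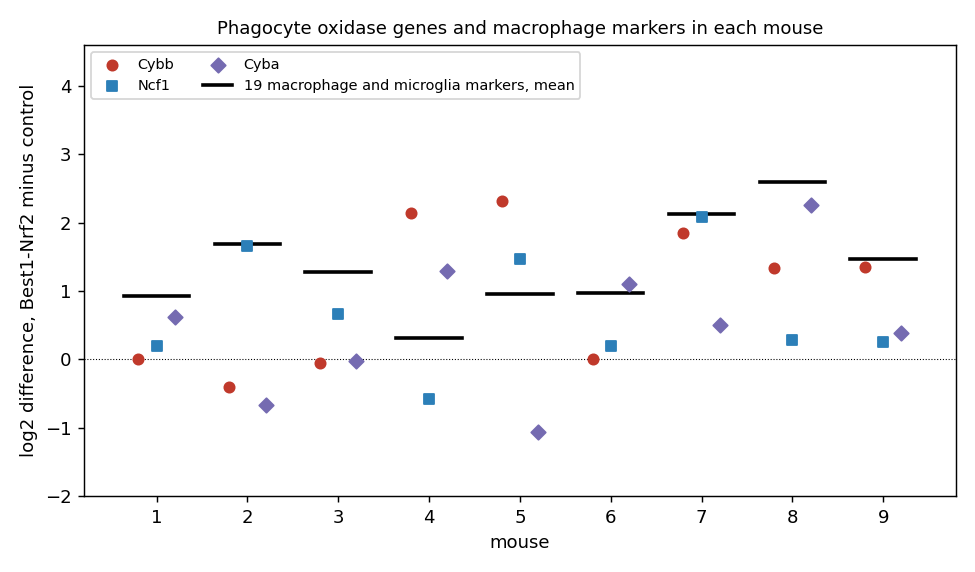
Log2 difference between the Best1-Nrf2 and control eye of each of the 9 mice for *Cybb*, *Cyba*, *Ncf1* and the mean of 19 macrophage and microglia markers. The marker mean is above 0 in 9 of 9 mice, *Ncf1* in 8, and *Cybb* is near or below 0 in mice 1, 2, 3 and 6.

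Levels between genes were compared in control eyes per kilobase of merged exon. *Cat* was highest (101 ± 48.8 CPM per kilobase, SD, n = 9), followed by *Cyba* (75.8 ± 50.1), *Ccs* (24.6 ± 6.27), *Sod1* (20.8 ± 17.1), *Sod3* (18.9 ± 10.2) and *Sod2* (16 ± 4.18 CPM per kilobase). *Nox4* (0.720 ± 0.150), *Ncf1* (0.428 ± 0.148) and *Cybb* (0.372 ± 0.175 CPM per kilobase) formed the low end. By this length, the ranges of neighbours in the order overlapped between eyes except for *Sod2* and *Nox4*. Within eyes, *Cyba* was above *Ccs* in 9 of 9, as *Sod2* was above *Nox4*. The order depended on the length used. By the longest transcript, *Cyba* came first (106 CPM per kilobase), before *Cat* (101), and *Sod2* (27.4) stood above *Sod1* (20.8) and *Sod3* (18.9 CPM per kilobase). *Sod1* was the most affected gene. Its merged exons span 3.97 kb because of a transcript that retains intron sequence, and its principal transcript is 0.641 kb long. By principal transcripts, a choice made after the data were seen, *Sod1* came first (129 CPM per kilobase), before *Cyba* (106) and *Cat* (101 CPM per kilobase).

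**Figure D5:**
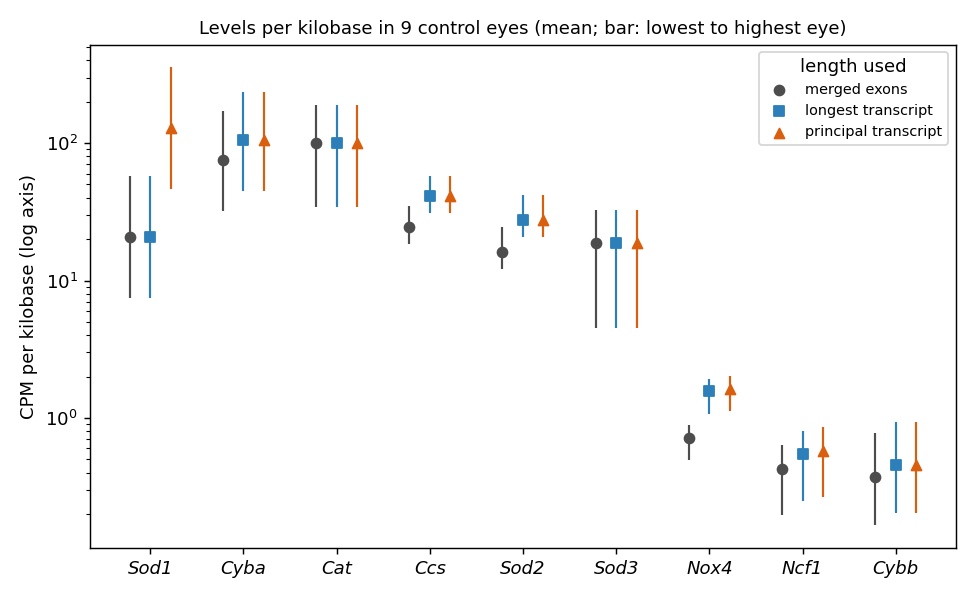
Mean level of the 9 genes in 9 control eyes in CPM per kilobase (log axis, bars from the lowest to the highest eye), by merged exon length, longest transcript and principal transcript. *Nox4*, *Ncf1* and *Cybb* lie below the other 6 genes by each length, and *Sod1* moves from 20.8 to 129 CPM per kilobase with the principal transcript.

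For each gene, the 3 genes with the most similar level across the 18 libraries were named by Pearson's r of log2 CPM, a description over eyes that share treatment, depth and makeup of cell types. *Sod2* was most like *Cyb5a* (r = 0.99), *Cbr1* (0.97) and *Fth1* (0.96), and *Cat* most like *Pip4p2* (0.98), *Fam69c* (0.97) and *B4galt4* (0.97). *Sod1* was closest to *Cox20*, *Ndufa1* and *Uqcrq*, all at 0.98 and all for parts or assembly of the mitochondrial respiratory chain. *Ccs* was closest to *Lamtor3*, *Exosc4* and *Ubb*, each at 0.95. *Sod3* was closest to *Gpx3* (0.96), the secreted glutathione peroxidase, *Mfap4* (0.94) and *Pde1a* (0.93). Among the oxidase genes, *Cyba* was closest to *Vkorc1* (0.98), *1500015O10Rik* (0.96) and *Comtd1* (0.96), and *Cybb* to *Pepd* (0.90), *Chpt1* (0.90) and *Tmem38b* (0.89). *Ncf1* was closest to *Irf8* (0.74), *Cx3cr1* (0.71) and *Tmem119* (0.69), the last 2 of which are in the macrophage and microglia list, and *Nox4* to *BC002059* (0.75), *Zfp882* (0.73) and *Pnisr* (0.71).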

How the data were processed

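RPE RNA, purified from the supernatant of eyecups in RNA Protect, was profiled by sequencing in both eyes of 9 *rd1* mice at P40. All 9 pairs are *rd1* by their labels, although the study's methods give fewer pairs for this comparison, which reach the same total only together with its CD1 (wild-type) pairs of that age. Strain was taken from the labels and could not be checked further. A kit for very small inputs was used to amplify the RNA, with neither strand marking nor molecular identifiers described. The SEs and CIs rest on the variation between eyes as well as on counting error. Per the labels, libraries were run in 2 sequencing runs, but each library's run is not given. The authors aligned reads to mm10 with STAR, counted with featureCounts and estimated transcripts with Salmon (0.8.1 per the submitters' processing notes). The deposited values were judged to be expected counts per Ensembl gene, unscaled. This was inferred from the values, and the counter is not given in the sources used here. They were rounded to whole numbers.

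Gene identifiers were matched to symbols for 47224 genes, and coordinates are from GENCODE vM21 (GRCm38). Genes were kept by filterByExpr and scaled by TMM in edgeR 4.0.16 (R 4.3.3). The quasi-likelihood test was fitted over all genes with mouse as a block, since the eyes of a mouse share an animal number in the labels. P values were adjusted over 18958 genes (threshold 0.05). After group means were removed, the correlation between the eyes of a mouse was -0.37 to 0.64 (median, -0.00). SEs and CIs are on the log2 scale, except that the CIs given with a fold value are on the fold scale. CPM values are TMM-scaled. Log2 CPM used a prior count of 2. Mean log2 marker levels served as covariates. Alternatives were other scalings and filters, DESeq2 1.42.0, limma 3.58.1 (voom), no block, marker covariates and each mouse left out. The procedure was checked on simulated data. No library was left out. Of the 72 pairs of libraries within a group, none agreed within sampling noise (lowest chi-square per degree of freedom, 50.8).

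The genes named are the 9 of the group, *Nfe2l2*, the 3 genes most like each, up to 4 called genes with the largest change per list (or the 2 most abundant where none was called) and single markers. *C1qc*, *Ctss*, *Mrc1*, *Col3a1*, *Ttr* and the neutrophil markers, as well as *Rac2* and the NADPH oxidase genes with few counts, were named after their values were seen. The 9 genes, lists and tests were chosen with earlier results of these data known. A planned protein comparison was not made, and 1 gene of a planned list, with that list's count of calls, is not reported here. Promoter windows are from RefSeq.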

Additional observations from a re-analysis of the deposited data

How the results depend on the processing

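Of the 9 genes, *Nox4*, *Sod1* and *Cybb* kept direction and lack of a call under every alternative run, and *Sod2* kept its call under all but the rod and cone and the macrophage and microglia covariates. With the rod and cone covariate, the log2 fold change was 1.40 for *Sod2*, 1.31 for *Cat*, 1.63 for *Sod1*, 1.47 for *Cyba*, 0.35 for *Ncf1*, -0.50 for *Sod3* and 0.78 for *Ccs*, 34 genes of all tested were higher and 6 lower, and the calls were 2 among oxidases, 0 among peroxidases and 2 among canonical Nrf2 targets. With the macrophage and microglia covariate, it was 0.84 for *Sod2*, 0.75 for *Cat*, 0.89 for *Sod1*, 0.04 for *Cyba*, -0.09 for *Nox4*, -0.44 for *Sod3* and -0.14 for *Ncf1*, with 22 genes higher and 2 lower and 2, 0 and 2 calls in these lists. With the RPE covariate it was 1.46 for *Cat*, 0.80 for *Sod1*, 0.76 for *Sod3*, 0.42 for *Ncf1*, 0.39 for *Ccs* and 1.25 for *Cyba* (called), with 373 genes higher, 62 lower and 5 calls among the peroxidases. These covariates differ between the groups themselves, and the cause of the lost calls was not tested. Without the replicate block *Cat* was no longer called (1.13), and no other call among the 9 genes changed. DESeq2 called 940 genes higher and 538 lower (5 peroxidases), and voom 924 and 502 (4 peroxidases).

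With each mouse left out in turn, the log2 fold change was 1.04 to 1.33 for *Cat*, 0.83 to 1.05 for *Sod2*, 0.17 to 0.58 for *Sod3*, 0.53 to 0.86 for *Ncf1*, 0.28 to 0.68 for *Cyba* and -0.18 to 0.04 for *Ccs*, whose sign turned without mouse 1 (0.02), mouse 2 (0.04) or mouse 9 (0.00). The genes called higher numbered 416 to 726 and those called lower 116 to 320, with 3 to 5 oxidases and 2 to 3 peroxidases. The excess of *Sod2* over *Sod1* ran from 0.36 to 0.73 that of *Cat* over *Sod1* from 0.43 to 1.09, that of *Ccs* over *Sod1* from -0.65 to -0.29 and that of *Cybb* over *Cyba* from 0.09 to 0.65. With mice 6 and 8 left out together, an alternative chosen after the data were seen, 764 genes were higher and 366 lower. The log2 fold change was then 0.17 for *Sod1* and 0.15 for *Cyba*, and no call among the 9 genes changed. Low counts limit *Cybb* and *Ncf1*, with 17 and 18 counts in the library that held fewest of each.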
